A study of Homo sapiens with 4 samples.

Results

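The genes described here are 10 amino acid transporters of the solute carrier families: SLC7A11, SLC7A5, SLC7A1, SLC3A2, SLC1A5, SLC1A4, SLC38A1, SLC38A2, SLC6A9 and SLC43A1. They were taken by name, as every probe set annotated to exactly 1 of these symbols, which gave 41 probe sets of 10 genes among the 18132 genes on the array. Their transcripts were measured in A549, a cell line from a human lung adenocarcinoma. There were 4 conditions, each held for 48 h and measured on 1 array. The cells were untreated, or received 25 μmol/L dihydroberberine, the hydrogenated derivative of berberine, a plant alkaloid, or 2 μmol/L sunitinib, an inhibitor of receptor tyrosine kinases, or both agents at these doses. All conditions share the same line, medium and time, and the labels name no vehicle for the untreated cells. With 1 array per condition there are no replicates, so the differences below compare single arrays. The only test is a fit that adds the effects of both drugs over the 4 arrays, described at its result.

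Amino acid carriers of the plasma membrane set which amino acids a cell can build into protein, glutathione and nucleotides. SLC3A2 is a heavy chain without transport activity of its own that brings light chains to the surface. Its partner SLC7A11 exchanges extracellular cystine for glutamate and so supplies cysteine for glutathione, and its partner SLC7A5 exchanges large neutral amino acids such as leucine, which activate mTORC1. SLC7A1 carries arginine and lysine. SLC1A5 and SLC1A4 are sodium-dependent exchangers of small neutral amino acids, with glutamine among the substrates of SLC1A5. SLC38A1 and SLC38A2 take up glutamine and alanine with sodium, SLC6A9 takes up glycine, and SLC43A1 is a sodium-independent carrier of large neutral amino acids. Several of these genes are known targets of ATF4, the transcription factor of the amino acid response, and SLC7A11 is also known as a target of NRF2. A549 cells carry an inactivating KEAP1 mutation that leaves NRF2 active.

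Values are log2 signals of probe sets, on which a difference of 1 is a doubling. A gene is represented by its brightest probe set, and a floor of log2 6.75, which is the median over gene probe sets and arrays, marks dim signals. All 10 transporters passed this filter, 9 of them on all 4 arrays, and 32 of the 41 probe sets lay above the floor on all 4 arrays while 6 lay under it on all 4. The median signal of gene probe sets was between 6.73 and 6.76 on the arrays. The dihydroberberine array stood apart in some of its controls. Its Alu control signal was 14.4 against 14.8 to 14.9 on the other arrays, its 18S rRNA signal was 13.7 against 14.1 to 14.4, and the 3′ minus 5′ difference of the ACTB control was 0.63 against 0.82 to 0.91. Its background probes of 15 to 25 G or C bases were the brightest, at 7.15 against 6.70, 6.99 and 6.95 on the untreated, sunitinib and combination arrays. The untreated array was the dimmest there. The 3′ minus 5′ difference of the GAPDH control did not set the dihydroberberine array apart, at 0.045 against 0.025 to 0.044 on the others. Of 9 epithelial markers of A549, 7 lay above the floor on all arrays, KRT8, KRT18 and KRT19 among them, but EPCAM and CDH1 lay under it on all 4. Of 9 measured markers of other cell types, 6 lay under the floor on all arrays, PTPRC among them. Their summed log2 signals were 58.3, 56.8, 54.2 and 53.6 on the untreated, dihydroberberine, sunitinib and combination arrays. CD14, a monocyte marker, moved most, from 8.82 untreated to 6.75, 6.27 and 5.76 on the other arrays in this order, and CD68, a macrophage marker, read 8.16, 8.42, 7.33 and 7.06. The part of these control and marker signals in the differences below was not tested. In RNA from whole cultures, fewer cells with a transcript and less of it per cell cannot be told apart.

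No transporter differed by 2-fold in any of the 5 comparisons of arrays or in the deviation from additivity. The share of all 10958 genes kept that did so, in either direction, was 4.57% for dihydroberberine against untreated, 0.794% for sunitinib against untreated and 2.66% for the combination against untreated. It was 0.84% for the combination against sunitinib, 3.22% for the combination against dihydroberberine and 3.72% for the deviation. At 1.5-fold, SLC38A1 was the only transporter higher with sunitinib alone, 1 of 10 against 1.61% of all genes, and 0 of 10 were lower, against 3.78%. With dihydroberberine alone SLC7A5 and SLC7A1 were lower, 2 of 10 against 12.6% of all genes, and 0 of 10 were higher, against 4.86%. In the combination SLC38A1 and SLC7A11 were higher than untreated, 2 of 10 against 6.85%, and 0 were lower, against 7.24%. The combination against dihydroberberine had SLC7A5, SLC7A11, SLC38A1 and SLC7A1 higher, 4 of 10 against 10.3%, and none lower, against 2.75%. The combination against sunitinib had 0 of 10 in either direction, against 3.58% higher and 1.47% lower among all genes. The largest of these counts, 4 of 10, belongs to a comparison that rests on the dihydroberberine array. With 10 genes and single arrays these shares are descriptions.

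**Figure D1:**
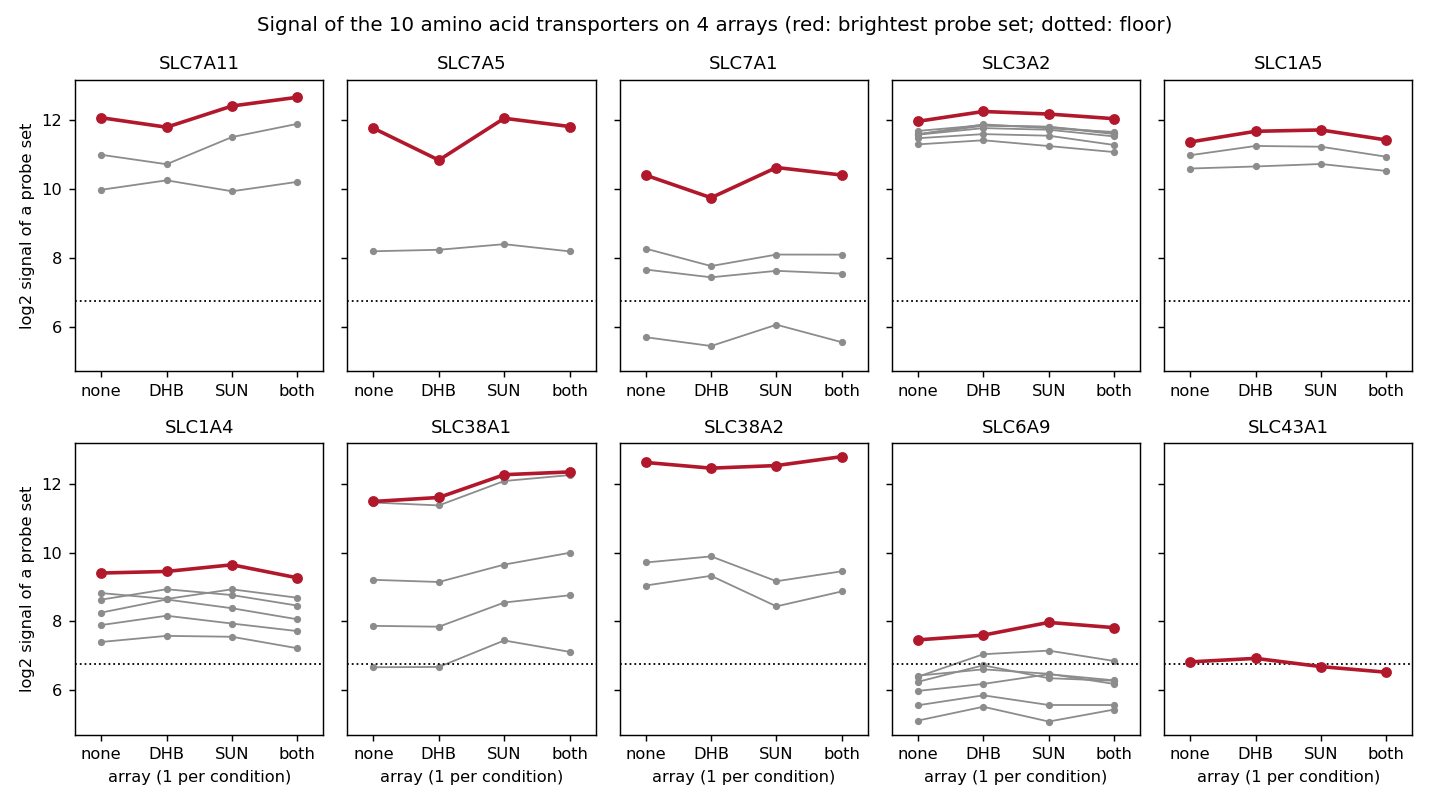
Each panel plots the log2 signal of every probe set of 1 transporter on the 4 arrays (none, untreated; DHB, dihydroberberine; SUN, sunitinib; both, the combination), with the brightest probe set in red, the others in grey and the floor of 6.75 dotted. SLC38A1 is higher on both arrays with sunitinib, the brightest probe set of SLC7A5 dips on the dihydroberberine array, and SLC43A1 lies at the floor.

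SLC38A1 was the transporter with the clearest difference, and it followed sunitinib. Its brightest probe set, 11754821_s_at, read 11.48 untreated, 11.60 with dihydroberberine, 12.26 with sunitinib and 12.34 with both. Both arrays with sunitinib therefore read higher than both without it. The share of all genes ordered in this way was not counted. Sunitinib against untreated gave a log2 difference of 0.78, or 1.72-fold, which was the 62nd highest of 10958 genes. The combination against dihydroberberine, which uses the other pair of arrays, gave 0.74, or 1.67-fold. All 5 probe sets were higher in both readings, by 0.44 to 0.78 and by 0.44 to 0.91. The combination against untreated gave 0.86, or 1.81-fold, with the 5 probe sets between 0.45 and 0.89. SLC38A1 was the only transporter at least 1.5-fold higher in both readings of sunitinib, as were 54 genes in all, or 0.493%. Dihydroberberine gave 0.12 without sunitinib, where 2 probe sets were positive and 3 negative. With sunitinib present it gave 0.08, but the 5 probe sets ran from -0.33 to 0.34, and the value was 0.34 without probe sets of the suffix _s_at or _x_at. Without these, which may match several transcripts, the brightest left gave 0.44 for sunitinib alone, or under 1.5-fold.

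SLC38A2, the neighbour of SLC38A1 on chromosome 12 and its closest relative in the list by family, did not share this pattern. The brightest probe set, 11739000_a_at, read 12.62, 12.45, 12.53 and 12.79 on the untreated, dihydroberberine, sunitinib and combination arrays, a range of 0.34. Its other 2 probe sets were dimmer and went their own way. 11738999_a_at read 9.04, 9.32, 8.44 and 8.87 in the same order, and 11747515_a_at read 9.71, 9.89, 9.17 and 9.46. For these, sunitinib against untreated gave -0.61 and -0.54, against -0.09 for the brightest, so the 3 probe sets shared a sign but not a size. In the combination against dihydroberberine the brightest was higher, by 0.34, and the others lower, by -0.45 and -0.43.

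**Figure D2:**
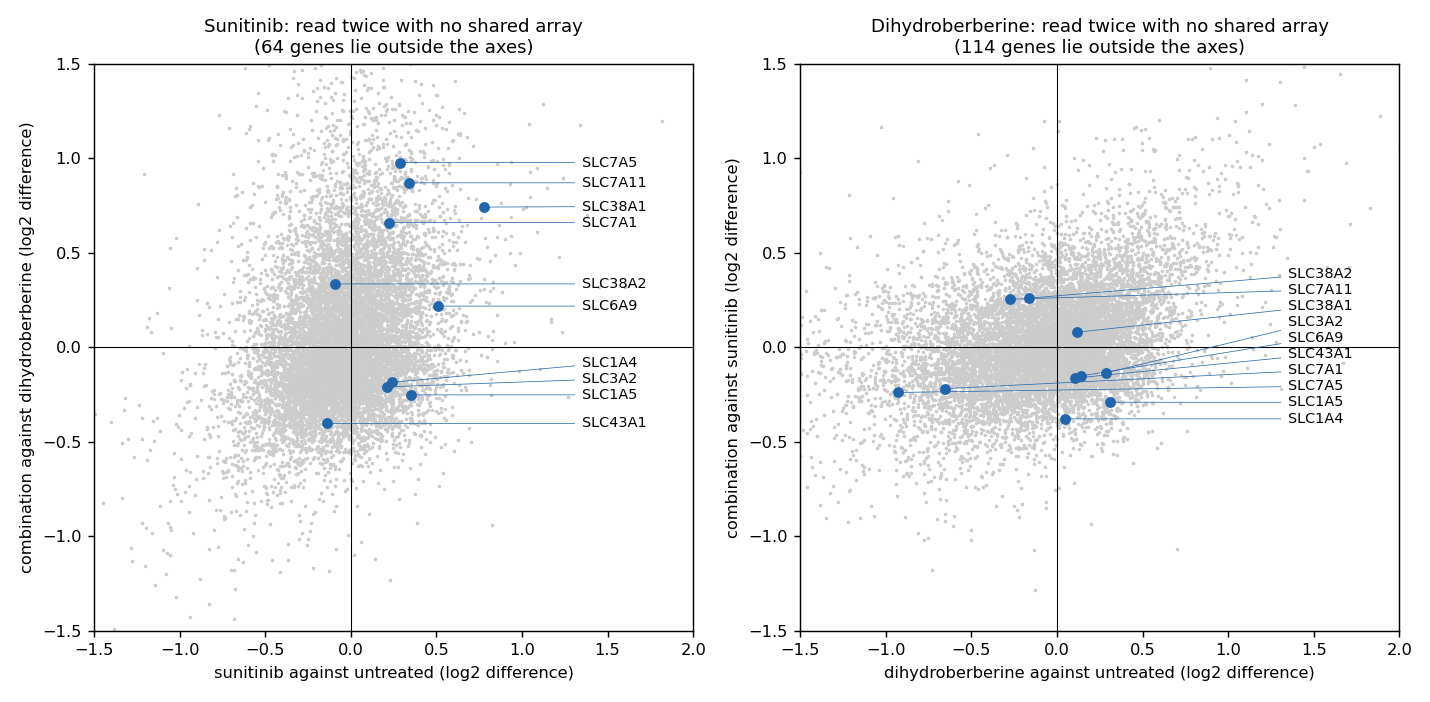
Each point is 1 of 10958 genes (grey) or 1 of the 10 transporters (blue, named), with the log2 difference for a drug alone against untreated on the x axis and for the same drug added to the other on the y axis; 64 genes (left) and 114 genes (right) lie outside the axes. SLC38A1 lies at 0.78 and 0.74 for sunitinib, SLC7A5 at 0.29 and 0.98, and for dihydroberberine no transporter lies past 1.5-fold in both readings.

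The sequences before the annotated starts of this pair are shown because the genes adjoin and differ in their values. They are the 250 bases upstream of a RefSeq start in GRCh38.p14, in lower case throughout since neither holds a whole match to the motifs described below. For SLC38A1 the start shown is the one of 2 whose window holds a motif across the start itself. The SLC38A1 stretch lies at chr12:46266517-46266766 and the SLC38A2 stretch at chr12:46372774-46373023, both on the minus strand. They differ in base composition, with 42.4% and 73.6% G or C and 5 and 26 CpG, where the median over all windows was 58% and 11.
SLC38A1: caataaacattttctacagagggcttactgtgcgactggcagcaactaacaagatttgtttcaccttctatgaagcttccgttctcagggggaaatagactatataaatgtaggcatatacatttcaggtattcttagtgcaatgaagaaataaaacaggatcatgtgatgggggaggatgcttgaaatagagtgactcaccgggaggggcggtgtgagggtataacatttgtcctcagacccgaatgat
SLC38A2: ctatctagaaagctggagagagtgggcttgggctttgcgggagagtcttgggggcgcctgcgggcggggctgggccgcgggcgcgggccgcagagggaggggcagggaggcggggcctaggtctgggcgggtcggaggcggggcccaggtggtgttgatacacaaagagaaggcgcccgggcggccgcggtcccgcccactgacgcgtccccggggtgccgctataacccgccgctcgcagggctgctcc

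The windows of 300 bases around the starts were searched for the core of the C/EBP-ATF response element, TGATGNAA, on both strands, since several transporters are known ATF4 targets. It was found in 3.62% of all 35116 windows and in 5 of the 16 windows of the transporters, which belong to 9 genes. The 5 matches were in 5 different genes, SLC38A1, SLC7A1, SLC3A2, SLC1A5 and SLC1A4. They are printed in 30 bases with the match in capitals, on the strand of the gene, so that a match on the other strand reads TTNCATCA. The stretches lie at chr12:46266502-46266531 (minus strand), chr13:29595663-29595692 (minus), chr11:62881719-62881748 (plus), chr19:46784893-46784922 (minus) and chr2:64989381-64989410 (plus).
SLC38A1: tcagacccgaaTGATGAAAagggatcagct
SLC7A1: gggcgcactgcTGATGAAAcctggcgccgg
SLC3A2: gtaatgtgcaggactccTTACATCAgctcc
SLC1A5: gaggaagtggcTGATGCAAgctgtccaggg
SLC1A4: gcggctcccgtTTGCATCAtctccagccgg
In their brightest probe sets the genes with a match shared a sign with sunitinib alone but not with dihydroberberine alone. With sunitinib alone their log2 differences were 0.78, 0.22, 0.21, 0.35 and 0.24 in the order printed, and with dihydroberberine alone 0.12, -0.66, 0.29, 0.31 and 0.05. The genes with a window but no match were SLC7A5, SLC38A2, SLC6A9 and SLC43A1. They gave 0.29, -0.09, 0.51 and -0.14 with sunitinib alone, and -0.93, -0.17, 0.14 and 0.10 with dihydroberberine alone. A link between a match and these differences was not tested. The core of the antioxidant response element bound by NRF2, TGACNNNGC, was found on either strand in 4 of the 16 windows, those of SLC7A5, SLC7A1, SLC3A2 and SLC1A5, and in 13.3% of all windows. The matches of the 2 motifs did not overlap. A match describes these letters and is not evidence of binding.

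SLC7A11, the cystine carrier, was highest with both drugs. Its brightest probe set, 11721876_s_at, read 12.07 untreated, 11.79 with dihydroberberine, 12.41 with sunitinib and 12.66 with both. The second, 11721875_at, had the same order, at 10.99, 10.72, 11.51 and 11.89. The third, 11744680_a_at, did not, and read 9.98, 10.25, 9.93 and 10.21, so that it followed dihydroberberine in place of sunitinib. The combination against untreated gave 0.60 for the brightest, or 1.51-fold, and 0.90 and 0.23 for the others. Against sunitinib alone the combination was higher in all 3 probe sets, by 0.25 to 0.38. Against dihydroberberine alone it gave 0.87, or 1.83-fold, and 1.17 for the second probe set, the only difference past 2-fold in a probe set above the floor among the transporters, but -0.04 for the third. The differences of either drug alone were smaller, at -0.27 for dihydroberberine and 0.34 for sunitinib, with 1 of 3 probe sets of the opposite sign in each. The 1.51-fold of the combination lay just past the size counted, and it was under 1.5-fold with its probe sets averaged (0.57) and with each array centred on its median (0.57).

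SLC3A2, the heavy chain that SLC7A11 and SLC7A5 share, differed little between arrays, and its 7 probe sets lay close together. The brightest, 11754529_x_at, read 11.96, 12.25, 12.18 and 12.04 on the untreated, dihydroberberine, sunitinib and combination arrays. The single drugs were the high pair. Dihydroberberine against untreated gave 0.29, with 7 of 7 probe sets positive between 0.12 and 0.29, and sunitinib gave 0.21, with 6 of 7 positive. The combination was lower than either drug alone in 7 of 7 probe sets, by -0.14 against sunitinib and -0.21 against dihydroberberine, and differed from untreated by 0.08, with 3 probe sets positive and 4 negative. Probe sets of a gene share the same arrays, so their common sign does not measure the error between arrays. Among 6407 genes with at least 2 such probe sets over the floor, all probe sets had the same sign in 68.9% for dihydroberberine, 60.6% for sunitinib and 66.9% for the combination against sunitinib. In the brightest probe sets the heavy chain stayed within a range of 0.29 while SLC7A11 spanned 0.87 and SLC7A5 spanned 1.22. Other probe sets did not all share this contrast. The other SLC7A5 probe set spanned 0.21 and 11744680_a_at of SLC7A11 spanned 0.32, while 11753434_a_at of SLC3A2 spanned 0.34.

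**Figure D3:**
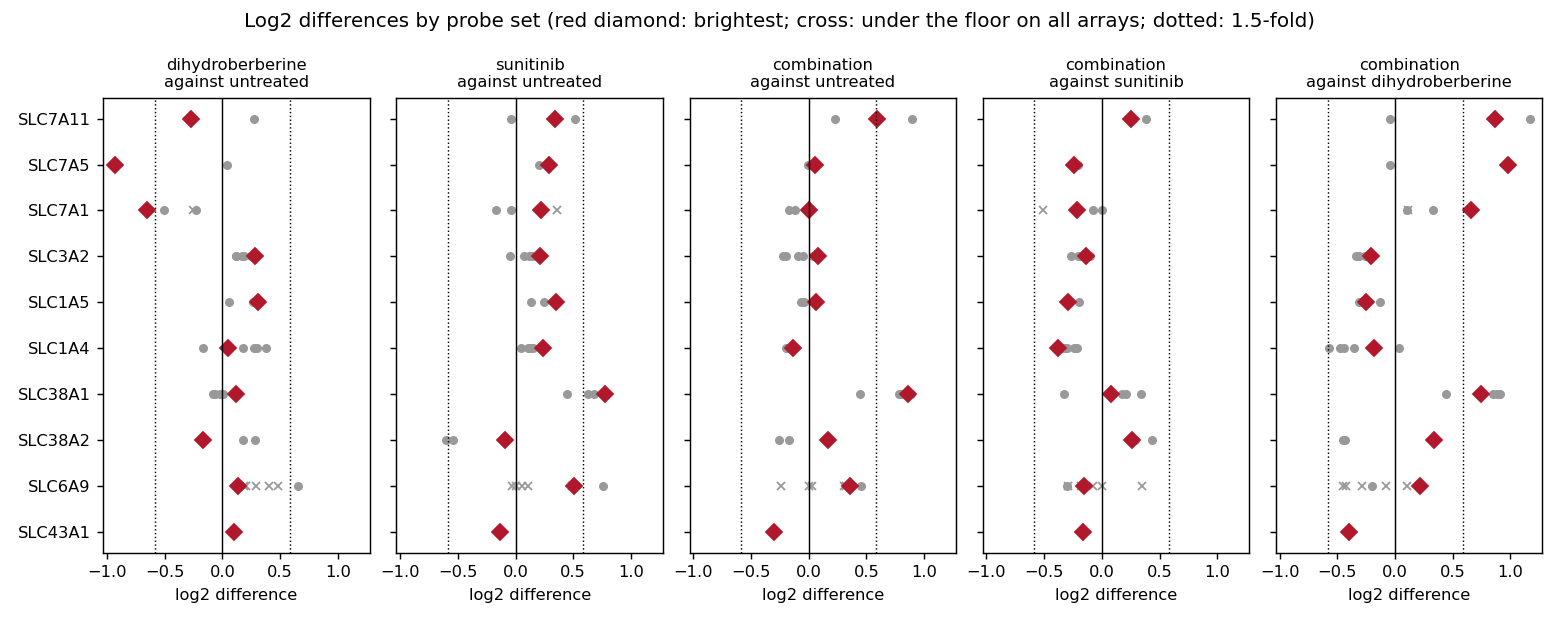
Each panel gives the log2 differences of 1 comparison for all probe sets of the 10 transporters, with the brightest as a red diamond, others above the floor on at least 1 array as grey points, those under it on all arrays as crosses, and 1.5-fold as dotted lines. With sunitinib the probe sets of SLC38A1 lie between 0.44 and 0.78 and those of SLC3A2 between -0.05 and 0.22. Those of SLC7A5 lie at 0.29 and 0.21 with sunitinib but at -0.93 and 0.04 with dihydroberberine.

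SLC7A5, the leucine carrier, had the largest range over the 4 arrays, and it rested on 1 probe set and 1 array. Its brightest probe set, 11739061_at, read 11.76 untreated, 10.84 with dihydroberberine, 12.05 with sunitinib and 11.81 with both. The dihydroberberine array was the low one and the other arrays lay within 0.29 of each other. Dihydroberberine against untreated gave -0.93, or 1.90-fold lower, and the combination against dihydroberberine 0.98, or 1.97-fold higher. Its other probe set, 11739060_s_at, read 8.19, 8.23, 8.40 and 8.19, with differences of 0.04 and -0.05 in these comparisons. In the comparisons without the dihydroberberine array the probe sets were alike. Sunitinib against untreated gave 0.29 and 0.21, and the combination against sunitinib -0.24 and -0.21. With the mean of both probe sets the differences that use the dihydroberberine array were -0.44 and 0.47, both under 1.5-fold.

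SLC7A1, the arginine carrier, was also lowest on the dihydroberberine array. Its brightest probe set, 11722413_a_at, read 10.40 untreated, 9.74 with dihydroberberine, 10.62 with sunitinib and 10.40 with both. Dihydroberberine against untreated gave -0.66, or 1.58-fold lower, and its 2 other probe sets above the floor gave -0.51 and -0.23. The combination against dihydroberberine gave 0.66, or 1.58-fold higher, with 0.33 and 0.11 in the others, and the combination differed from untreated by 0.004. The lower level was thus found in all 3 probe sets, but its size was not shared. Dihydroberberine against untreated was under 1.5-fold after quantile normalization (-0.53) and with its probe sets averaged (-0.41), and so was the combination against dihydroberberine in the average (0.30). In the combination against sunitinib, the reading of dihydroberberine that does not use this array, SLC7A5 and SLC7A1 gave -0.24 and -0.22.

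The genes nearest to SLC7A5 over the 4 arrays were sought by the Euclidean distance between log2 values centred on each gene's mean, with SLC7A5 used because its range was the largest. The nearest 5 were SLC36A1, a lysosomal exporter of amino acids, MTRES1, a mitochondrial RNA-binding protein, SRSF5 and TRA2B, splicing factors, and WDR5, a subunit of histone methyltransferase complexes. Their distances were 0.045 to 0.094. Since they were picked by likeness to the brightest SLC7A5 probe set, a low dihydroberberine array was given in advance. All were lower on it, by -0.98 for SLC36A1, -0.93 for MTRES1, -0.90 for SRSF5, -0.89 for TRA2B and -0.80 for WDR5. SRSF5 and TRA2B kept this in each of 10 and 9 probe sets above the floor, from -1.19 to -0.64 and from -1.22 to -0.75. SLC36A1 did not, as its 4 probe sets ran from -0.98 to 0.22. The distance uses 4 arrays and describes them only. The Alu control differed in the same comparison by -0.41 and in the combination against dihydroberberine by 0.44, and its part was not tested.

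SLC1A5, the glutamine exchanger, was higher with either drug alone and at the untreated level with both. The brightest probe set, 11716866_x_at, read 11.36, 11.67, 11.71 and 11.42 on the untreated, dihydroberberine, sunitinib and combination arrays. The single drugs gave 0.31 and 0.35 against untreated, positive in 3 of 3 probe sets, and the combination gave 0.06. Against each single drug the combination was lower in 3 of 3 probe sets, by -0.29 against sunitinib and -0.25 against dihydroberberine. SLC1A4, the carrier of alanine, serine and cysteine, had a like pattern at a lower signal. Its brightest probe set, 11757680_a_at, read 9.41, 9.45, 9.65 and 9.27 in the same order, so the combination was the lowest array. Against sunitinib the combination gave -0.38, with 6 of 6 probe sets lower by -0.38 to -0.22, and against untreated -0.14, again 6 of 6 lower. No single difference of either gene reached 1.5-fold.

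The deviation from additivity, which takes both single drugs from the combination and adds back untreated, summarises this pattern and uses all 4 arrays. At 1.5-fold SLC7A5 lay above it, at 0.69, 1 of 10 against 12.2% of all genes, and SLC1A5 below it, at -0.60, 1 of 10 against 3.73%. SLC3A2 gave -0.42, negative in 7 of 7 probe sets, and SLC1A4 -0.43, negative in 6 of 6. SLC1A5 was negative in 3 of 3, between -0.60 and -0.26, and SLC7A11 gave 0.53, SLC7A1 0.44 and SLC38A2 0.43. SLC38A1 gave -0.04 in its brightest probe set, but its others ran from -0.34 to 0.41, and the sign turned when probe sets were averaged (0.10) and without those of the suffix _s_at or _x_at (0.41). The value of SLC7A5 is made by the dihydroberberine array in 1 probe set, since the other gave -0.25. The median SD between probe sets of 1 gene was 0.16 for this quantity and 0.096 to 0.14 for the 5 comparisons.

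SLC6A9, the glycine carrier, and SLC43A1 were the dimmest of the 10. The brightest probe set of SLC6A9, 11737326_a_at, read 7.46, 7.60, 7.97 and 7.82 on the untreated, dihydroberberine, sunitinib and combination arrays. Sunitinib against untreated gave 0.51, or 1.42-fold, the 317th highest of 10958 genes, and the only other probe set that reached the floor, 11749536_x_at, gave 0.76. The remaining 5 of its 7 probe sets were under the floor on all arrays, and gave -0.03, 0.01, 0.49, 0.05 and 0.10 for sunitinib against untreated. The background probes were brighter by 0.29 in that comparison, and their part in the SLC6A9 difference was not tested. In the combination against dihydroberberine the probe sets above the floor gave 0.22 and -0.20, so the reading with sunitinib added to dihydroberberine had no common sign. SLC43A1 was measured by 1 probe set, 11744921_a_at, at 6.82, 6.93, 6.69 and 6.52, which straddles the floor. These values are near the median of the background probes, so its differences, from -0.40 to 0.10, are not read as changes in its transcript.

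Over the 10 transporters the median log2 difference was 0.07 with dihydroberberine, 0.26 with sunitinib and 0.07 with both against untreated, where the median of all genes was -0.03, -0.04 and -0.02. With sunitinib 8 of 10 were positive, where 44.3% of all genes were. The combination against sunitinib had a median of -0.16, with 7 of 10 negative, and the combination against dihydroberberine 0.28, with 6 of 10 positive. That last median became -0.18 when probe sets of a gene were averaged, so its direction depends on the choice of probe set. In the pair of comparisons that read sunitinib with no shared array, 6 of 10 transporters had the same sign, and 58.4% of all genes. For dihydroberberine these were 3 of 10 and 62.1%.

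The 4 arrays form pairs with and without each drug, which allows 1 test. An additive fit with limma set the mean of arrays with a drug against that of arrays without it. The other drug was a block. A gene's own error was its deviation from additivity, with 1 residual degree of freedom. limma moderated this error toward a value drawn from all genes, with 3.56 prior degrees of freedom. The SEs and p-values therefore rest more on that shared value than on the gene's own deviation. This fit was chosen after the data were seen. With sunitinib SLC38A1 gave 0.76 ± 0.14 (SE), with an unadjusted p of 0.0043 and an adjusted p of 0.51 by limma with Benjamini-Hochberg adjustment over 10958 genes. SLC7A5 gave 0.63 ± 0.22 and SLC7A11 0.61 ± 0.19, also with an adjusted p of 0.51 by limma. The fit used only the brightest probe set of each gene. For SLC38A1 that probe set deviated from additivity by -0.04 and its others by -0.34 to 0.41, so its small error depends on the probe set. In the other SLC7A5 probe set sunitinib gave 0.21 without dihydroberberine and -0.05 with it. In the third SLC7A11 probe set it gave -0.04 in each reading. With dihydroberberine SLC7A5 gave -0.58 ± 0.22 and SLC7A1 -0.44 ± 0.18, with adjusted p-values of 0.413 and 0.424 by limma. No transporter passed an adjusted p of 0.05, and 0 of all genes did for either drug, which is 0%. At an unadjusted p under 0.05 limma had 3 of 10 transporters for sunitinib, against 9.73% of all genes, and 1 of 10 for dihydroberberine, against 12.1%. The error holds any deviation from additivity, and single arrays cannot tell a true one from error between arrays. SLC1A5, with a deviation of -0.60, gave 0.049 ± 0.20 with sunitinib.

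Related genes were described from lists chosen with earlier results of these data known. Of 20 other amino acid carriers of the plasma membrane, 10 passed the filter. Of these, 2 were 1.5-fold lower with dihydroberberine, against 12.6% of all genes, and none higher, against 4.86%. None passed 1.5-fold with sunitinib, against 1.61% higher and 3.78% lower. SLC7A2, a second carrier of cationic amino acids, read 10.73, 11.27, 10.43 and 11.25 on the untreated, dihydroberberine, sunitinib and combination arrays. It followed dihydroberberine, at 0.54 alone and 0.83 with sunitinib present, positive in 3 of 3 probe sets each time, where SLC7A1 gave -0.66 and -0.22. SLC7A6, a further light chain that pairs with SLC3A2, was lower with dihydroberberine by -1.03, with 3 of 3 probe sets between -1.03 and -0.32, and by -0.14 with both drugs. SLC38A5, another glutamine carrier of the SLC38 family, was lower with each drug and lowest with both, at -0.53, -0.44 and -0.83, from a single probe set.

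Lysosomal carriers return amino acids from the lysosome to the cytosol. Of 7 measured, 3 were at least 1.5-fold lower with dihydroberberine, against 12.6% of all genes, and 1 with sunitinib, against 3.78%. Their medians were -0.44 and 0.15. The former was -0.18 when probe sets were averaged and -0.65 at a floor of the 75th percentile. SLC36A4 was lower with either drug and with both, at -0.67, -0.72 and -0.80, in 2 of 2 probe sets. SLC38A9, an arginine sensor of the lysosome, was higher with both drugs by 0.66, positive in 3 of 3 probe sets.

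The genes of the amino acid and integrated stress response included larger differences than any transporter. Of 21 measured, 7 were at least 1.5-fold higher with dihydroberberine, against 4.86% of all genes, and 3 lower, against 12.6%. The 3 lower were CHAC1 at -0.78, EIF2AK3 at -0.69 and SESN2 at -0.67. With sunitinib 4 were higher, against 1.61%, and 0 lower, against 3.78%, and with both drugs 4 were higher, against 6.85%, and 0 lower, against 7.24%. GDF15, a secreted stress cytokine, had the largest difference of the list, at 2.09 with dihydroberberine, 0.38 with sunitinib and 1.63 with both, positive in 5 of 5 probe sets with dihydroberberine and with both. STC2, a secreted glycoprotein, gave 1.58, 0.60 and 1.03 in the same order, positive in 3 of 3 each time. ATF4 itself read 14.05, 14.20, 14.18 and 14.16 on the untreated, dihydroberberine, sunitinib and combination arrays. ASNS, asparagine synthetase and a known target of ATF4, was higher by a like amount on all 3 treated arrays, at 0.86, 0.90 and 0.89 against untreated. DDIT3, the stress factor CHOP, was higher with dihydroberberine alone by 1.24, while sunitinib gave 0.02 and the combination 0.14. ATF5 had the largest difference of the list with sunitinib, at 0.93, but gave -0.23 with dihydroberberine and 0.46 with both. CEBPG, a dimer partner of ATF4, was, like ASNS, past 1.5-fold on all 3 treated arrays, at 0.71 with dihydroberberine, 0.81 with sunitinib and 0.95 with both. Of 12 measured genes of glutathione synthesis and NRF2 targets, none passed 1.5-fold with sunitinib or with both, and 3 were lower with dihydroberberine, against 12.6% of all genes, led by HMOX1, heme oxygenase, at -1.15. NFE2L2, which encodes NRF2, gave 0.57 with both drugs, in the same comparison where SLC7A11 gave 0.60. The next largest differences of this list there were KEAP1 at -0.53, GSR at -0.39 and TXNRD1 at 0.35, the last positive in 3 of 3 probe sets. GCLC and GCLM, the subunits of the enzyme that joins cysteine to glutamate, gave -0.01 and 0.12. Of the 12 measured, 4 were positive and 8 negative in this comparison. A link of these values to SLC7A11 was not tested.

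**Figure D4:**
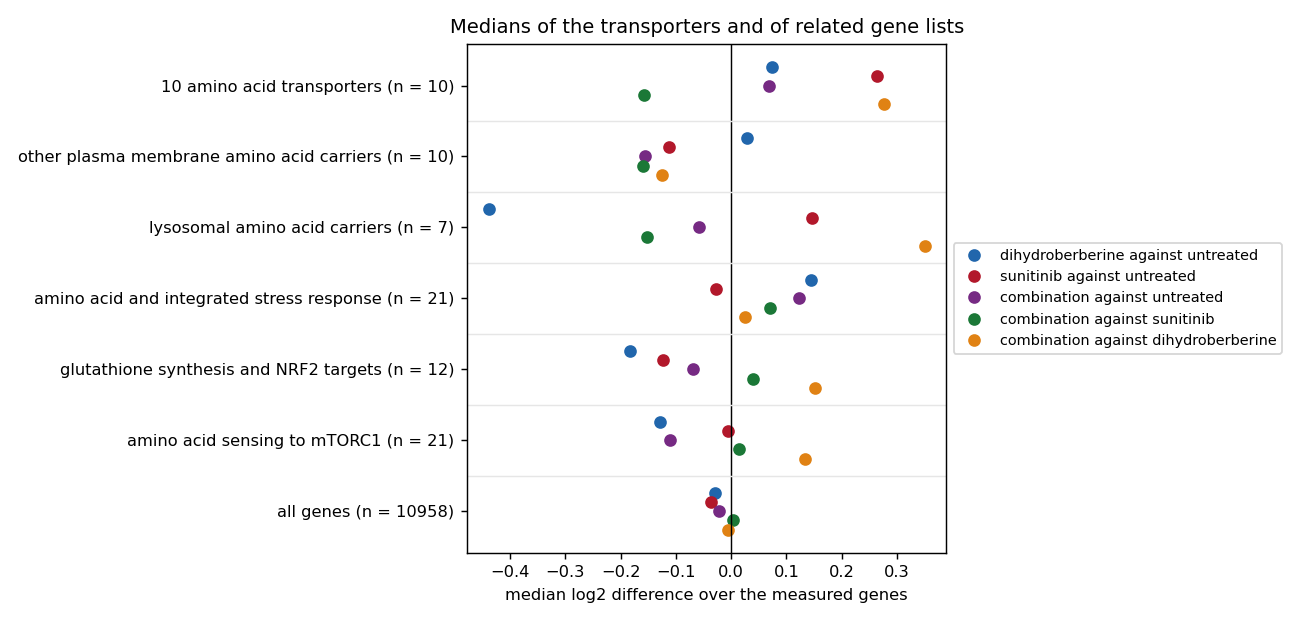
Points give the median log2 difference of the 10 transporters, of 5 related gene lists and of all 10958 genes in the 5 comparisons (colours), with the number of measured genes beside each name. With sunitinib the transporters lie at 0.26, lysosomal carriers at 0.15 and other plasma membrane carriers at -0.11, and with dihydroberberine they lie at 0.07, -0.44 and 0.03 in the same order.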

How the data were processed

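Expression was measured on 4 Affymetrix arrays, 1 per condition. The authors deposited 1 log2 signal for each probe set. Per the submitters' processing notes, Affymetrix Expression Console was used. Its version, the summarization and the scaling of arrays are not stated in the labels or the file. An Agilent array is named in the design text, whereas the probe set names and controls are Affymetrix, per the file headers and rows. The values lie between 3.01 and 15.4, from which the log2 scale was inferred.

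Of 49293 gene probe sets, 44988 had 1 symbol in the platform annotation, 1832 several and 2473 none. All 41 probe sets of the transporters carried the same symbol in RefSeq for GRCh38.p14, and none was shared with another symbol. Each gene was represented by its brightest probe set by mean over the arrays, and genes with at least 1 array at or above log2 6.75 were kept. Differences between single arrays were counted at 2-fold and 1.5-fold with no test. An additive limma fit of both drugs over the 4 arrays, chosen after the data were seen, gives the only p-values. The code for the counting and the fit was checked on simulated data, with planted changes larger than any difference of a transporter. That check does not show how either performs at the sizes seen here. The number of arrays limits the precision.

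Promoter sequences came from RefSeq, GRCh38.p14, and 9 of 10 transporters had an entry, all but SLC7A11. All 10 transporters are named, and of each related list up to 4 genes with the largest difference in a comparison, the 5 genes nearest to SLC7A5, and genes named to check a label. ATF4, GCLC, GCLM, CHAC1 and EIF2AK3 were added after their values were seen. The transporters and lists were chosen with earlier results of these data known. The first 7 alternatives were another choice of probe set, centring, quantile normalization, 3 treatments of dim signals and leaving out probe sets that may match several transcripts. Python 3.11.15, numpy 2.4.6, pandas 2.3.3 and matplotlib 3.10.9 were used, with limma 3.58.1 in R 4.3.3.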

Additional observations from a re-analysis of the deposited data

Results flagged for a closer look

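Each condition has 1 array, so outlying arrays within a group were not sought, and the differences below between a drug's reading alone and with the other drug were not tested. They were picked because the sign differed between the readings and each was larger than the median SD between probe sets of a gene.

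For sunitinib, SLC3A2 gave 0.21 alone and -0.21 with dihydroberberine present, a change of -0.42. SLC1A5 gave 0.35 and -0.25, a change of -0.60, and SLC1A4 0.24 and -0.19, a change of -0.43. These are the brightest probe sets. The sign did not differ in 11753434_a_at of SLC3A2, at -0.05 and -0.34, or in 11730614_a_at of SLC1A4, at 0.11 and 0.04.

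For dihydroberberine, SLC3A2 gave 0.29 alone and -0.14 with sunitinib present, again a change of -0.42, and SLC1A5 0.31 and -0.29, a change of -0.60. SLC6A9 gave 0.14 and -0.15, a change of -0.29. In the other direction SLC7A11 gave -0.27 and 0.25, a change of 0.53, and SLC38A2 -0.17 and 0.26, a change of 0.43. The change is the same number for either drug by construction. These too are the brightest probe sets. The third SLC7A11 probe set, 11744680_a_at, gave 0.27 in both readings of dihydroberberine. The dimmer SLC38A2 probe sets were positive in both, at 0.28 and 0.43 for 11738999_a_at and at 0.18 and 0.29 for 11747515_a_at.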

How the results depend on the processing

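The labels give no replicate numbers to pair arrays by, and leaving out an array would leave its condition without a value. Of 60 differences of a transporter (10 genes in 6 quantities), 8 had the opposite sign under at least 1 of the first 7 alternatives, and all 8 were under 1.5-fold. None of the 11 past 1.5-fold changed sign, but 8 of them fell under 1.5-fold under at least 1 alternative, and 2 others passed it. SLC6A9 had no value when probe sets were averaged, and SLC6A9 and SLC43A1 had none at the floor of the 75th percentile, since they were not kept there.

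When the probe sets of each gene were averaged, 9147 genes were kept. At 1.5-fold, 0 transporters were lower with dihydroberberine, against 874 of all genes, and 1 was higher with both drugs than untreated, against 438. In the combination against dihydroberberine 2 were higher, against 574. In the deviation from additivity 0 were higher and 0 lower, against 728 and 227. The transporters' median was then -0.18 in the combination against dihydroberberine and 0.10 in the deviation, where the brightest probe sets gave 0.28 and -0.15. After quantile normalization 10956 genes were kept. Of the transporters, 1 was lower with dihydroberberine, against 1035 of all genes, and 2 were lower in the deviation, against 627. Centring each array on its median left 1 higher with both drugs, against 679 of 10955 genes, and 0 lower in the deviation, against 335. Without _s_at and _x_at probe sets 0 were higher with sunitinib, against 159 of 9481 genes. The deviation then had 2 higher, against 1089, and 0 lower, against 387, with a median of 0.070. At the floor of the 75th percentile the medians were 0.50 and 0.19. The share of all 1.5-fold differences that were higher was 27.9% with dihydroberberine, 29.8% with sunitinib and 76.5% in the deviation, and 42.0%, 42.5% and 59.5% after quantile normalization. With no filter the sunitinib share was 39.4% and that of the deviation 57.1%, and at the 75th percentile the latter was 88.0%. The additive limma fit over the 4 arrays, on brightest probe sets, was added after seeing the data. In it 3 transporters were 1.5-fold higher with sunitinib and 0 were lower with dihydroberberine, and the medians were 0.24 and -0.0089. The share of all genes past 1.5-fold in this fit was not counted, so its counts stand without a background. Signals near the background probes, as for SLC43A1 and SLC6A9, limit what a difference can show.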

Other observations

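Genes by which mTORC1 senses amino acids were measured for 21 of 23 listed. With both drugs against untreated 4 were at least 1.5-fold higher, against 6.85% of all genes, and 1 lower, against 7.24%. With sunitinib alone 0 were higher, against 1.61%, and 1 lower, against 3.78%. SESN1, a sestrin that restrains mTORC1, was higher with both drugs by 0.89, with sunitinib by 0.45 and in the combination against dihydroberberine by 0.95, positive in 2 of 2 probe sets in each. RRAGD, a Rag GTPase, was higher with both drugs by 0.86 in its brightest probe set and by up to 1.15 in the others, 3 of 3 positive, and FNIP1, a partner of folliculin, by 0.69 in 2 of 2.

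With dihydroberberine alone 5 were at least 1.5-fold lower, against 12.6% of all genes, and 1 higher, against 4.86%. RRAGB, a Rag GTPase, was the lowest, at -1.30 in its only probe set above the floor, which read 7.64 untreated and 6.34, under the floor, with dihydroberberine. RPTOR, the raptor subunit of mTORC1, was lower by -1.23, and its 3 probe sets were all lower but ran from -1.23 to -0.18. FLCN, folliculin, gave -1.18 in the brightest of 2 probe sets and 0.33 in the other. In FLCN, as in SLC7A5, the probe sets therefore differed in sign.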
